A study of Homo sapiens with 24 samples.

Results

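The genes described here code for SR proteins, the serine and arginine rich factors of pre-mRNA splicing, and for a pair of SR-related proteins. They are SRSF1, SRSF2, SRSF3, SRSF4, SRSF5, SRSF6, SRSF7, SRSF11, SRRM1 and SRRM2, and they were found as the rows of the gene count tables that carry these symbols. The 10 genes are 10 of 26475 symbols in the files, and all 10 passed the filter on low counts in every comparison. They were measured in HepG2, a human liver cancer cell line, by RNA sequencing of 24 libraries in 8 groups of 3 replicates. Without interferon, the cells received DMSO (the solvent), ABBV-075 (50 nM) or ABBV-744 (at either 50 or 500 nM). The other 4 groups received IFNgamma (interferon gamma, IFNγ), either alone or with each of those inhibitor treatments. The study's methods give 12 h for ABBV-075 and name DMSO together with compounds given for longer, so the time in culture of the DMSO cells may differ from that of the ABBV-075 cells. The times of the other groups and the dose of IFNγ are not given in the sources used here, so compound and time cannot be told apart. All cells are of a single cell line, and replicates are the study's experimental triplicates, so p-values measure the spread between these cultures or libraries.

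ABBV-075 and ABBV-744 block BET proteins, which bind acetylated histones through tandem bromodomains and help RNA polymerase II to elongate. ABBV-075 inhibits both bromodomains, whereas ABBV-744 prefers the second. SR proteins carry RNA recognition motifs and a tail of arginine and serine repeats. They bind exonic enhancers, help to recruit the early spliceosome to splice sites, and are phosphorylated by the SRPK and CLK kinases. Many SR genes control their own level by including poison exons, which send the transcript to nonsense-mediated decay. The counts used here are per gene, so they do not separate coding transcripts from those with a poison exon. SRRM1 and SRRM2 lack the RNA recognition motif. They act as splicing coactivators, and SRRM2 is a scaffold of nuclear speckles, the bodies in which splicing factors are stored.

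The 10 genes lie on 7 chromosomes of GRCh38. SRSF1 (chr17:58000919-58007346, minus strand) and SRSF2 (chr17:76734115-76737333, minus strand) share chromosome 17. SRRM1 (chr1:24631716-24673281, plus strand), SRSF4 (chr1:29147743-29181900, minus strand) and SRSF11 (chr1:70205682-70253052, plus strand) share chromosome 1. The others are SRRM2 (chr16:2752626-2772538, plus strand), SRSF3 (chr6:36594353-36605600, plus strand), SRSF5 (chr14:69726900-69772005, plus strand), SRSF6 (chr20:43457893-43466046, plus strand) and SRSF7 (chr2:38743599-38751494, minus strand). All are annotated as protein coding in GENCODE. SRSF2 overlaps MFSD11 on the opposite strand, and counting without strand lost 14.9% of its reads, against 18.4% for SRSF5. It also overlaps MIR636 on its own strand, which counting by strand does not separate. The counts used here are those on the strand of the gene. Pseudogenes are annotated for SRSF3, SRSF6, SRRM1, SRSF1 and SRSF2, and reads that align to several places were not counted, so the levels of these genes may be understated.

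Promoter windows, from 250 bases before to 50 bases after the gene start in RefSeq (GRCh38.p14), were matched for 9 of the 10 genes, all but SRSF2. They are shown for SRSF3 and SRSF11, whose group means were closely correlated before any correction (Pearson's r = 0.975 over the 8 groups). SRRM2 is shown beside them, and its r was 0.081 with SRSF3 and 0.025 with SRSF11. Capitals mark matches on either strand to any of 6 motifs. These were TATAAA as the TATA box, CCAAT as the site of NF-Y, GGGCGG as the GC box, CACGTG as the E-box, TGACGTCA as the cyclic AMP response element and ACTTCCG as a site of ETS factors, each searched on both strands. The SRSF3 window is chr6:36594112-36594411, the SRSF11 window chr1:70221130-70221429 and the SRRM2 window chr16:2752388-2752687, all on the plus strand. The RefSeq start of SRSF11 lies inside the longer GENCODE gene.
SRSF3: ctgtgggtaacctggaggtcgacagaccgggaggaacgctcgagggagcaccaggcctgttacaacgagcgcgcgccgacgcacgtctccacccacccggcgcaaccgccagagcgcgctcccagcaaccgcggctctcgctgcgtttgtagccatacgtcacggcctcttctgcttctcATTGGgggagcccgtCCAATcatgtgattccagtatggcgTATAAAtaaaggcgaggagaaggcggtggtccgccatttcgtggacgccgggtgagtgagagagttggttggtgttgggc
SRSF11: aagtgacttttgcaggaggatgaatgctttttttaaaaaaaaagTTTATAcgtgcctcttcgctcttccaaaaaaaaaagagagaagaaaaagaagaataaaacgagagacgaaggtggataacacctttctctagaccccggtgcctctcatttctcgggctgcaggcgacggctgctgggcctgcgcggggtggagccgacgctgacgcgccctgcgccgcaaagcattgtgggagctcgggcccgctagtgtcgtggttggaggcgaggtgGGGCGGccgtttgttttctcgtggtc
SRRM2: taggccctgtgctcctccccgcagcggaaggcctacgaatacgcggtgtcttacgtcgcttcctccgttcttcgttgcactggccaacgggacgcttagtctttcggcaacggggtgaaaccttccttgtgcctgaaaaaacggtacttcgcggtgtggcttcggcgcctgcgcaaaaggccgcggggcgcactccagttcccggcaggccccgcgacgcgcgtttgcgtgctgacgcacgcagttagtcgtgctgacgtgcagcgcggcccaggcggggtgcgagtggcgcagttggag
The SRSF3 window held a TATAAA match 24 bases before the start on the strand of the gene, and CCAAT matches 65 and 50 bases before it. The SRSF11 window held TATAAA 200 bases before the start on the opposite strand and GGGCGG 30 bases after the start, and the SRRM2 window held none of the 6 motifs. Over 35116 RefSeq promoters of the same length, 11.5% held TATAAA, 34.6% CCAAT, 45% GGGCGG, 7.26% CACGTG, 1.85% TGACGTCA and 6.83% ACTTCCG. Among the SR genes, GGGCGG was found in 5 of the 9 windows (SRRM1, SRSF4, SRSF6, SRSF7 and SRSF11), CCAAT in SRRM1 and SRSF3, and ACTTCCG in SRSF4 and SRSF5. CACGTG and TGACGTCA were found in 0 of the 9. A match is a description of the letters and does not show that a factor binds there.

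In DMSO, SRSF2 had the highest level per length, at 121 ± 2.1 (SD, n = 3) CPM per kilobase of exon, where CPM is the count scaled to library size. SRSF1 followed at 68.6 ± 2.47 and SRSF3 at 53.3 ± 0.709 on the same scale. All 3 are classical SR proteins that bind exonic enhancers. SRSF7 had 26.6 ± 1.78 and SRSF6 22.2 ± 0.263 CPM per kilobase. SRRM2 (11.3 ± 0.498) and SRSF5 (10.6 ± 0.403) were next, and they differed by less than the sum of their SDs. SRSF11, SRSF4 and SRRM1 had the lowest levels, 3.55 ± 0.423, 2.91 ± 0.363 and 2.58 ± 0.155 CPM per kilobase, and SRSF4 and SRRM1 differed by less than the SD of SRSF4. The SDs do not cover the choice of length, here all annotated exons of a gene. These were 7118 bases for SRSF3 and 5781 for SRSF1, against 4228 and 5343 for the longest transcript. The order of genes with nearby levels, such as SRSF1 and SRSF3, therefore depends on the length used.

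**Figure D1:**
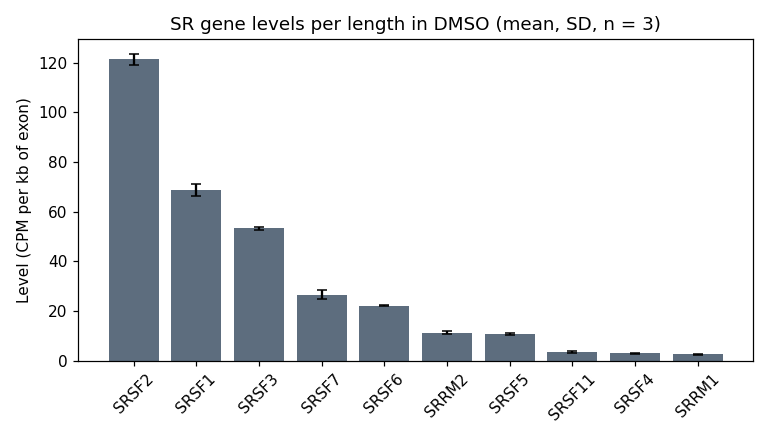
Level of each SR gene in DMSO, in CPM per kilobase of exon on a linear axis; bars are means and error bars the SD of 3 libraries. SRSF2 stands highest at 121, and SRSF11, SRSF4 and SRRM1 lie below 4.

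Between 2978982 and 4304103 reads per library were counted on genes, and the 10 SR genes took 0.134% to 0.201% of them. HEXIM1, which rises when BET proteins are blocked, had a mean of 53.8 CPM in DMSO and 145 CPM with ABBV-075, against 64.8 and 89.4 CPM with ABBV-744 at 50 and 500 nM. With IFNγ alone it had 47.0 CPM, and 135 CPM with ABBV-075 added. Adding ABBV-744 to IFNγ gave 49.5 CPM at 50 nM, near the level with IFNγ alone, and 71.5 CPM at 500 nM. Of 3 such check genes, HEXIM1, SERPINI1 and HIST2H2BE, only HIST2H2BE was called higher with ABBV-744 at 50 nM against DMSO. The hepatocyte gene ALB had 3055 CPM in DMSO, while PTPRC, CD3E, COL3A1 and KRT5, markers of other cell types, were at 0 in every group. Of the other 5 such markers, CD14, COL1A1, PECAM1 and VWF had group means of at most 4.08 CPM, and ACTA2 had 11.9 to 22.7 CPM. A trend with GC content ran through the libraries and bears on every value below. Relative to the DMSO mean, the median log2 level of genes with a transcript GC under 43.2% was compared with that of genes over 53% (the lowest and highest of 3 equal groups of 11490 genes). This difference spanned -0.12 to 0.098 in DMSO and -0.32 to 0.029 with IFNγ. It was above 0 in the 3 ABBV-075 libraries (0.82, 0.55 and 0.0062) and below 0 in the ABBV-744 libraries (-0.80 to -0.055), but 0.28 to 0.79 in all 9 libraries with IFNγ and an inhibitor. The median transcript GC of the 10 SR genes was 40.6%, against 48.2% over all genes with a value. SRSF11 had 36.6%, SRSF1 38.7%, SRSF3 39.4%, SRSF7 41.3%, SRSF2 45.6%, SRRM1 46.8% and SRRM2 56%. Calls are therefore given as fitted and, where they change, after a GC correction that subtracts this trend from each library. By its construction the correction also removes any response that itself follows GC content, and what produced the trend was not tested. The share of multiply aligned reads differed between groups as well. It was 56% to 61% in DMSO, 56% to 67.4% with ABBV-075, and 66.2% to 69.4% and 64% to 68% with ABBV-744 at 50 and 500 nM. IFNγ alone had 58.3% to 66.4%, and 61.9% to 67.1% with ABBV-075 added. IFNγ with ABBV-744 had 57.6% to 59.6% at 50 nM and 64.3% to 66.3% at 500 nM. The bearing of this share on the values below was not tested.

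**Figure D2:**
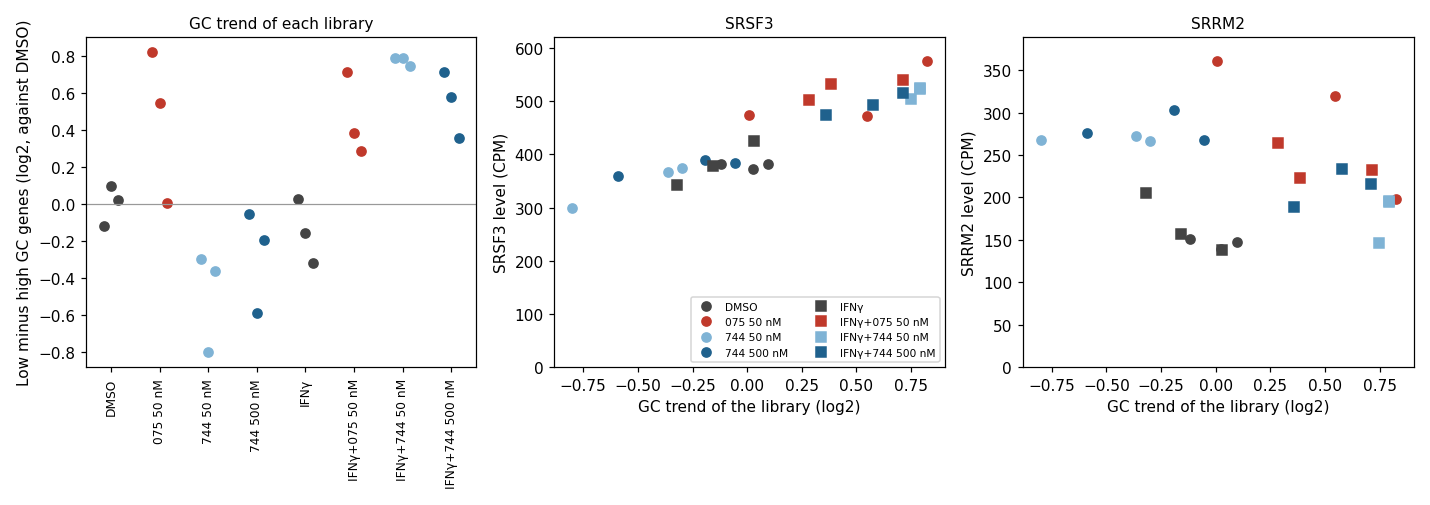
Left, GC trend of each library (median log2 deviation from the DMSO mean of low-GC genes minus high-GC genes); middle and right, CPM of SRSF3 and SRRM2 against that trend, one point per library, coloured by group. SRSF3 spans 300.0 to 575 CPM. In the ABBV-075 libraries, at trends of 0.0062, 0.55 and 0.82, SRSF3 has 474, 472 and 575 CPM and SRRM2 360.5, 319 and 198 CPM. With IFNγ alone, at -0.32, -0.16 and 0.029, SRRM2 has 206, 157 and 138 CPM. In the 6 libraries with ABBV-744 alone, which cover -0.80 to -0.055, SRRM2 lies between 267 and 303 CPM.

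SRRM2 rose with all 3 inhibitor treatments in the absence of IFNγ, and it had the largest change of the 10 genes in each. A gene was called where the adjusted p was at most 0.05. With ABBV-075, SRRM2, SRSF11 and SRSF3 rose, 3 of 10 called, against 39.3% called in either direction and 19.8% called higher over all genes tested. With ABBV-744 at 50 nM, SRRM2 rose and SRSF1 and SRSF7 fell, 3 of 10, against 18.9% over all genes. At 500 nM, SRRM2 rose and SRSF1 fell, 2 of 10, against 15.3%. In cells with IFNγ the comparison was with IFNγ alone. There, SRSF11, SRSF3 and SRRM2 rose and SRSF5 fell with ABBV-075, 4 of 10, against 56.6% of all genes. SRSF11, SRSF3, SRSF7 and SRSF1 rose with ABBV-744 at 50 nM, 4 of 10, against 51.7%. At 500 nM, SRSF11, SRSF3, SRRM2 and SRSF7 rose and SRSF5 fell, 5 of 10, against 45.7%. The share of SR genes called lay below that of all genes in 3 of these 6 comparisons, and above it in the other 3 by about 1 gene or less. With ABBV-075, 0 of 10 SR genes called by edgeR also passed the study's further limit on size, 1.5 on the log2 scale either way, which 4.28% of all genes passed. In libraries of bulk RNA, fewer cells and less RNA per cell cannot be told apart, and CPM is relative to the other genes.

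**Figure D3:**
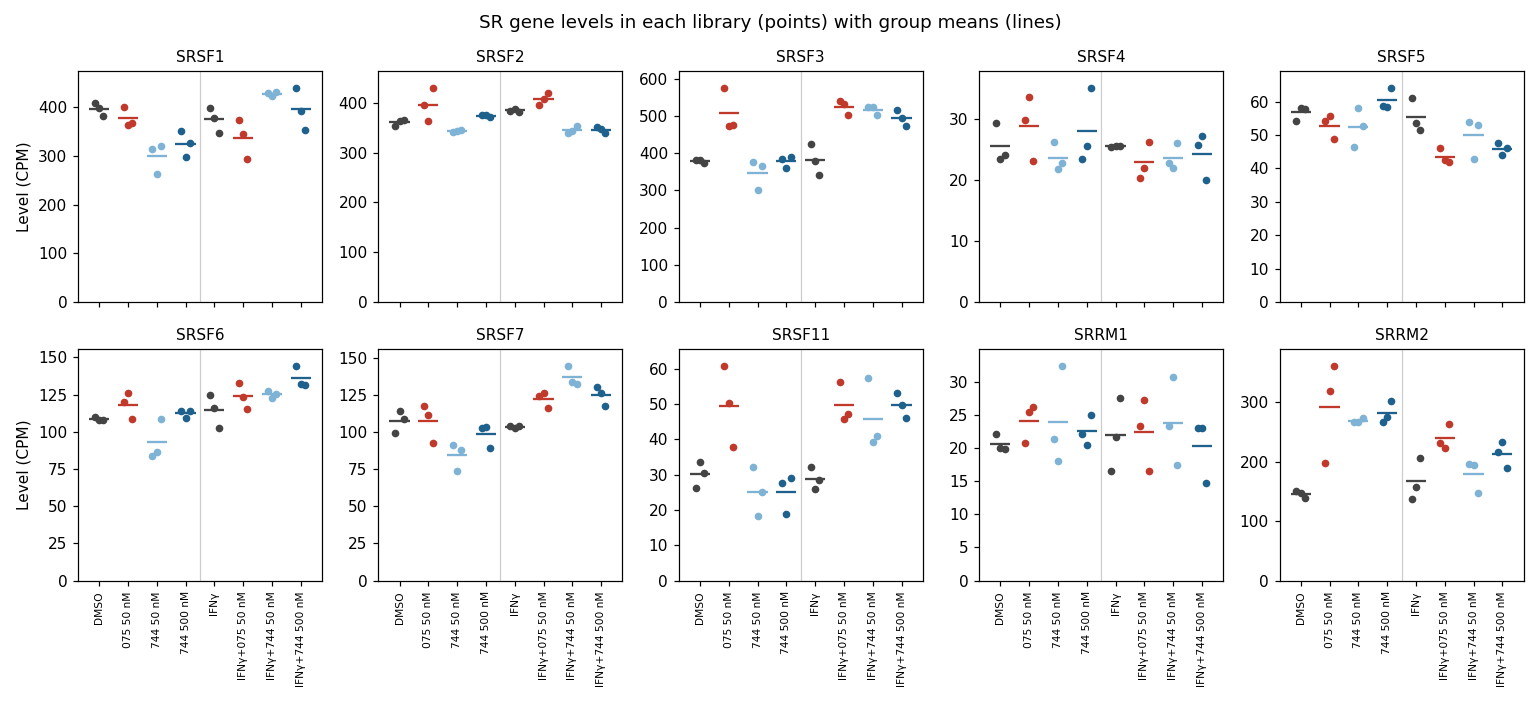
CPM of the 10 SR genes in each of the 24 libraries (points) with group means (lines), on linear axes from 0; the grey line separates groups with IFNγ. SRRM2 lies above the DMSO range of 139 to 151 CPM in all 9 libraries with an inhibitor alone, and SRSF3 and SRSF11 are high with ABBV-075 and in every inhibitor group with IFNγ.

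Among the comparisons of an inhibitor with DMSO or with IFNγ alone, the GC correction kept each call of SRRM2 and ended or turned most of the other calls. After it, with ABBV-075, 1 gene was called higher (SRRM2) and 3 lower (SRSF1, SRSF5 and SRSF7), against 45.1% of all genes. With ABBV-744 at either dose, SRRM2 alone among the 10 remained called, against 10.8% of all genes at 50 nM and 17.9% at 500 nM. With IFNγ, 2 were called higher (SRRM2 and SRSF2) and 4 lower (SRSF1, SRSF4, SRSF5 and SRSF6) for ABBV-075 (55.9% of all genes), 1 higher (SRRM2) and 6 lower (SRSF1 to SRSF6) for ABBV-744 at 50 nM (34.4%), and 1 higher (SRRM2) and 4 lower (SRSF1, SRSF4, SRSF5 and SRSF6) at 500 nM (36.8%). The median log2 fold change of the 10 genes moved from 0.14 to -0.0013 with ABBV-075, where the median of all genes was 0.026 as fitted. It moved from 0.14 to -0.18 with IFNγ and ABBV-744 at 50 nM, where the median of all genes was -0.017.

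**Figure D4:**
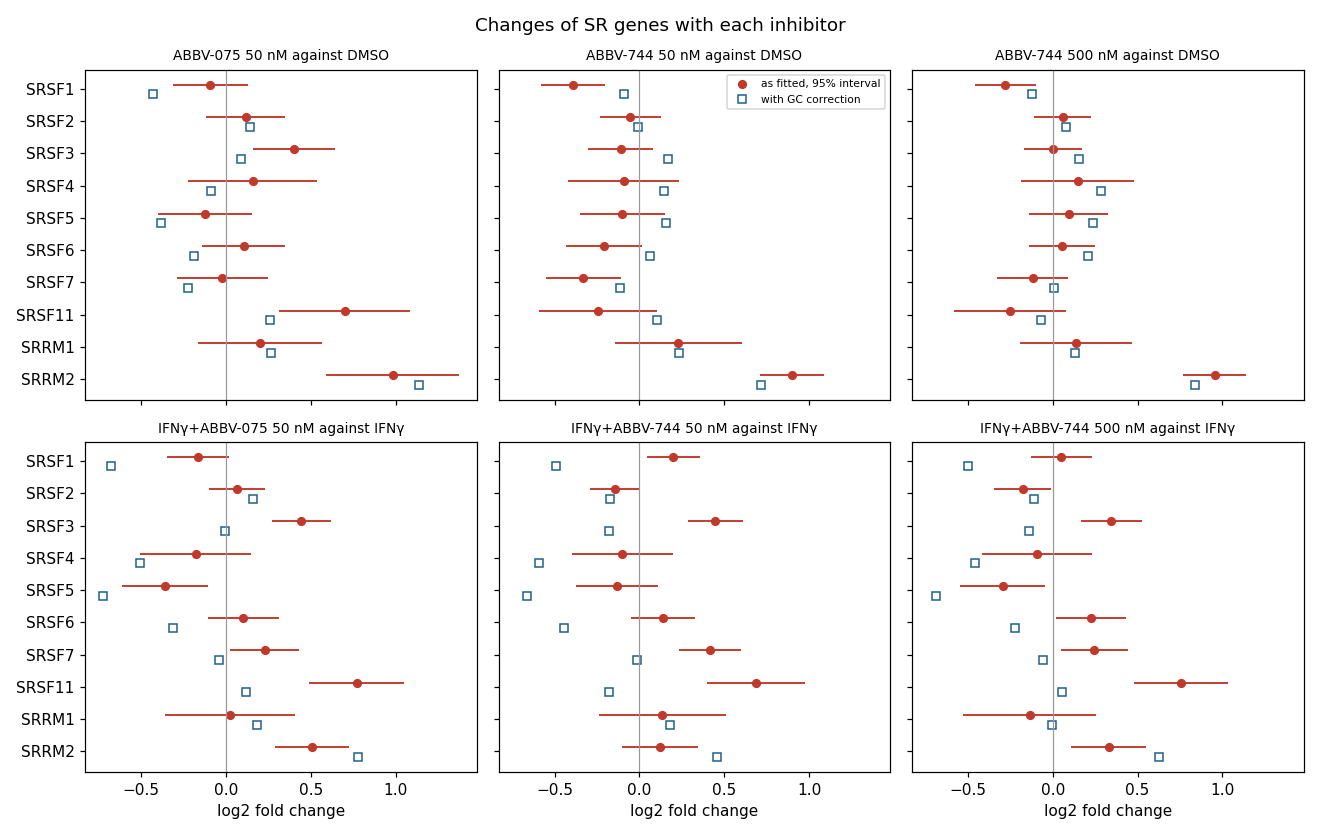
Log2 fold change of the 10 SR genes with each inhibitor against DMSO (top) or IFNγ (bottom); circles with lines are the values as fitted with their 95% interval, squares the values after GC correction. SRRM2 is above 0 both ways in all 6 panels, while SRSF3 moves from 0.45 to -0.18 in the panel of IFNγ with ABBV-744 at 50 nM.

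SRRM2 encodes the speckle scaffold that is also found in the active spliceosome. Its level was 151, 148 and 139 CPM in the 3 DMSO libraries and 198, 319 and 360.5 CPM with ABBV-075. Every ABBV-075 library exceeded every DMSO library, but the ABBV-075 libraries themselves were widely spread. ABBV-075 replicate 3, whose GC trend of 0.0062 lay within the DMSO range, had the highest SRRM2 level. ABBV-075 replicate 1, whose trend was 0.82, had the lowest of its group. What set the level of a single library was not tested. The log2 fold change was 0.98 ± 0.18 (SE), 1.97-fold, with adjusted p = 0.00134, and it exceeded that of 94.2% of the genes tested. ABBV-744 at 50 nM gave 267, 268 and 273 CPM, and at 500 nM 268, 276 and 303 CPM. These 6 libraries lay close together and above all DMSO libraries, at log2 fold changes of 0.90 ± 0.09 (adjusted p = 2.03e-07) and 0.95 ± 0.09 (adjusted p = 7.01e-09). Both values exceeded those of 99.2% of the genes tested. After GC correction the log2 fold changes were 1.14 with ABBV-075 (adjusted p = 3.8e-06), 0.71 with ABBV-744 at 50 nM (adjusted p = 8.62e-08) and 0.84 at 500 nM (adjusted p = 1.25e-09). The SRRM2 calls in these 3 comparisons were kept whichever library was left out.

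With IFNγ alone SRRM2 had 138, 157 and 206 CPM, a wide range in which replicate 3 stood above the DMSO libraries. With IFNγ and ABBV-075 it had 232, 223 and 264 CPM, all above the IFNγ libraries, and it rose by 0.51 ± 0.11 on the log2 scale (adjusted p = 0.000124), also with each library left out in turn. With IFNγ and ABBV-744 at 50 nM it had 196, 195 and 147 CPM, overlapping the IFNγ libraries, and the log2 fold change of 0.12 ± 0.11 was not called (adjusted p = 0.368, 95% interval -0.10 to 0.34). This value became 0.46 and called after GC correction (adjusted p = 0.000428), and leaving out IFNγ replicate 3 as fitted also gave a call, at 0.28 (adjusted p = 0.0224). At 500 nM it had 216, 234 and 189 CPM, also overlapping, and the log2 fold change was 0.33 ± 0.11 (adjusted p = 0.0144). That call was lost without IFNγ replicate 1, IFNγ replicate 2 or replicate 2 of the treated group (adjusted p = 0.0523 to 0.122), and the GC-corrected value was 0.63 (adjusted p = 2.56e-06). In the 9 libraries with IFNγ and an inhibitor, whose GC trend favoured low-GC genes, the value of this high-GC gene was larger after correction than as fitted.

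SRRM1, the partner coactivator of SRRM2, had a low level and was called in no comparison, as fitted or after GC correction. It ranged from 14.7 to 32.3 CPM over the 24 libraries (48 to 109 counts), and its group means spanned 0.26 on the log2 scale, less than the within-group SD of 0.31. With ABBV-075 the log2 fold change was 0.20 ± 0.17 (95% interval -0.16 to 0.56), so a change of the size seen for SRRM2 lay outside the interval. With ABBV-744 at 50 nM it was 0.23 ± 0.18 (-0.15 to 0.61) and at 500 nM 0.14 ± 0.16 (-0.20 to 0.47).

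SRSF3, which promotes exon inclusion and mRNA export, and SRSF11, an SR-related protein found with the spliceosome, were called in the same 4 comparisons with DMSO or IFNγ, always higher. SRSF3 had 381, 382 and 373 CPM in DMSO and 575, 472 and 474 CPM with ABBV-075, with no overlap. Its log2 fold change was 0.40 ± 0.11 (adjusted p = 0.0136), but the call was lost when any DMSO library was left out (adjusted p = 0.0553 to 0.0696). SRSF11 had 26.3, 33.5 and 30.6 CPM in DMSO and 60.6, 50.1 and 37.9 CPM with ABBV-075, again without overlap. It rose by 0.70 ± 0.18 on the log2 scale, 1.62-fold (adjusted p = 0.00877), and without DMSO replicate 1 the adjusted p was 0.0507. GC correction ended both calls, at 0.086 for SRSF3 (adjusted p = 0.467) and 0.26 for SRSF11 (adjusted p = 0.0846). In ABBV-075 replicate 3, the library with a GC trend like DMSO, SRSF3 was at 474 CPM and SRSF11 at 37.9 CPM. Both lay above all DMSO libraries, whose highest values were 382 and 33.5 CPM. This is a single library, with 67.4% of its reads multiply aligned against 56% to 61% in DMSO. What set its levels was not tested.

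In IFNγ alone SRSF3 had 424, 379 and 342 CPM, and in the inhibitor groups with IFNγ it had 539, 532 and 501 CPM (ABBV-075), 524, 523 and 503 CPM (ABBV-744 at 50 nM) and 516, 493 and 473 CPM (500 nM). All 9 treated libraries exceeded the 3 IFNγ libraries. The log2 fold changes were 0.44 ± 0.09 (adjusted p = 3.71e-05), 0.45 ± 0.08 (adjusted p = 1.77e-05) and 0.35 ± 0.09 (adjusted p = 0.00179). After GC correction they were -0.0063, -0.18 and -0.14, of which the value for ABBV-744 at 50 nM was called in the opposite direction (adjusted p = 0.0238). SRSF11 had 32.2, 25.8 and 28.3 CPM in IFNγ alone and 56.1, 45.7 and 47.0 CPM, 57.2, 39.2 and 41.0 CPM and 53.1, 49.7 and 46.0 CPM with the same 3 inhibitor treatments. Here too all 9 treated libraries exceeded the IFNγ libraries, at log2 fold changes of 0.77 ± 0.14 (adjusted p = 1.32e-05), 0.69 ± 0.14 (adjusted p = 0.000142) and 0.76 ± 0.14 (adjusted p = 2.82e-05). None of the 3 remained called after GC correction, with values of 0.11, -0.18 and 0.056. Without IFNγ, ABBV-744 gave no call for either gene. SRSF3 had 375, 300.0 and 366 CPM at 50 nM (log2 fold change -0.11 ± 0.09, 95% interval -0.30 to 0.08) and 384, 359 and 389.7 CPM at 500 nM (-0.17 to 0.17). SRSF11 had 32.1, 18.4 and 25.0 CPM at 50 nM (-0.24 ± 0.17, -0.59 to 0.10) and 27.6, 18.9 and 29.0 CPM at 500 nM (-0.25 ± 0.16, -0.58 to 0.08).

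SRSF1, the founding SR protein and a known oncoprotein, had 409, 399 and 381 CPM in DMSO. With ABBV-744 it had 315, 262 and 320.2 CPM at 50 nM and 352, 297 and 327 CPM at 500 nM, and all 6 libraries were below the DMSO range. SRSF1 fell by 0.39 on the log2 scale at 50 nM (SE 0.09, adjusted p = 0.00512) and by 0.28 at 500 nM (SE 0.09, adjusted p = 0.0273). The call at 500 nM was lost when any of 5 of the 6 libraries was left out (adjusted p = 0.0508 to 0.118), the exception being ABBV-744 replicate 1. After GC correction neither was called, at -0.093 (adjusted p = 0.465) and -0.12 (adjusted p = 0.214). The library with the smallest GC trend among these, 500 nM replicate 1 at -0.055, had 352 CPM. That is a single library, and what set its level was not tested. With ABBV-075 SRSF1 had 401, 363 and 368 CPM, overlapping DMSO, and its log2 fold change of -0.09 ± 0.10 was not called (adjusted p = 0.497) but became -0.43 after correction (adjusted p = 0.00449).

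With IFNγ the values of SRSF1 turned with the correction. It had 399, 378 and 347 CPM with IFNγ alone and 428, 422 and 430.5 CPM with ABBV-744 at 50 nM, a rise of 0.20 ± 0.08 as fitted (adjusted p = 0.0273). That call was lost when any of 4 of the 6 libraries was left out (IFNγ replicates 2 and 3, treated replicates 1 and 3; adjusted p = 0.0634 to 0.136) and became -0.49 after correction (adjusted p = 1.31e-07). With ABBV-744 at 500 nM the value was 0.05 ± 0.09, not called, and -0.50 after correction (adjusted p = 1.54e-07). With ABBV-075 it was -0.17 ± 0.09, not called (adjusted p = 0.111) unless IFNγ replicate 3 or treated replicate 1 was left out (adjusted p = 0.0331 to 0.0462), and -0.68 after correction (adjusted p = 4.33e-13). Across the 6 inhibitor comparisons, the corrected SRSF1 value was below 0 in each, with a range of -0.68 to -0.093.

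SRSF7, a zinc knuckle SR protein that also acts in polyadenylation and export, had 99.8, 114 and 109 CPM in DMSO and 91.5, 73.9 and 88.1 CPM with ABBV-744 at 50 nM. These groups did not overlap, and SRSF7 fell by 0.33 (SE 0.11, adjusted p = 0.0326), a call lost without DMSO replicate 2 or 3 or ABBV-744 replicate 2 or 3 (adjusted p = 0.0683 to 0.171) and after GC correction (-0.11, adjusted p = 0.439). At 500 nM the value was -0.12 ± 0.10 (95% interval -0.33 to 0.09). With IFNγ, SRSF7 had 104, 103 and 104 CPM, and it was higher in all libraries with an inhibitor added. It rose with ABBV-744 at 50 nM to 144, 134 and 132 CPM (0.42 ± 0.09, adjusted p = 0.000197) and at 500 nM to 131, 126 and 118 CPM (0.25 ± 0.10, adjusted p = 0.0385). The call at 500 nM was lost when any of 5 of the 6 libraries was left out, all but treated replicate 3 (adjusted p = 0.053 to 0.128). For ABBV-075, at 125, 127 and 116 CPM, the value was 0.23 ± 0.10 (adjusted p = 0.0521). The corrected values were -0.013, -0.055 and -0.044 in that order, none called.

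SRSF6, which regulates tau and other alternative exons, was not called in any comparison as fitted. Its group means ran from 93.0 ± 13.7 CPM with ABBV-744 at 50 nM to 136 ± 6.98 CPM with IFNγ and ABBV-744 at 500 nM (SD, n = 3), against 109 ± 1.29 in DMSO. Against IFNγ alone (125, 116 and 103 CPM) the latter group (144, 132 and 132 CPM) did not overlap, at a log2 fold change of 0.22 ± 0.10 (adjusted p = 0.0693). It was called without IFNγ replicate 1 or treated replicate 3 (adjusted p = 0.025 to 0.0447). After GC correction SRSF6 was called lower in all 3 inhibitor comparisons with IFNγ, at -0.31, -0.44 and -0.22, so its direction turned with the correction.

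SRSF2, the SR protein mutated in myeloid neoplasms, had the smallest spread within groups of the 10 genes. Its level was 354, 363 and 366 CPM in DMSO, 384, 388 and 382 CPM with IFNγ and 342, 343 and 345 CPM with ABBV-744 at 50 nM, and its within-group SD over all groups was 0.048 on the log2 scale. It was not called in any comparison with DMSO or with IFNγ as fitted. With ABBV-075 it had 396, 364 and 429.9 CPM, overlapping DMSO in a single library, at 0.12 ± 0.11 (95% interval -0.12 to 0.35). After GC correction it was called with IFNγ in opposite directions, at 0.16 with ABBV-075 (adjusted p = 0.0333) and -0.17 with ABBV-744 at 50 nM (adjusted p = 0.0302).

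SRSF5, a classical SR protein, had 60.9, 53.5 and 51.4 CPM with IFNγ. It had 46.2, 42.4 and 41.9 CPM with IFNγ and ABBV-075, where it fell by 0.36 (SE 0.13, adjusted p = 0.0143), and 47.5, 44.1 and 46.0 CPM with ABBV-744 at 500 nM, where it fell by 0.29 (SE 0.12, adjusted p = 0.0497). Both treated groups lay below every IFNγ library. Without IFNγ replicate 1 the adjusted p for ABBV-075 was 0.0754, and for ABBV-744 the call was lost when any of 5 of the 6 libraries was left out, all but IFNγ replicate 3 (adjusted p = 0.08 to 0.202). The GC correction kept the direction of both calls and increased their size, to -0.72 (adjusted p = 3.54e-08) and -0.69 (adjusted p = 3.79e-06). With ABBV-744 at 50 nM the level was 53.8, 42.9 and 52.9 CPM and the value -0.13 ± 0.12, not called as fitted and -0.66 after correction (adjusted p = 9.11e-06). Without IFNγ, SRSF5 had 54.3, 58.2 and 57.8 CPM in DMSO and 54.1, 55.6 and 48.7 CPM with ABBV-075 (-0.12 ± 0.13, not called; -0.39 after correction, adjusted p = 0.00872). SRSF4, a relative with a long arginine and serine tail, had group means of 22.9 to 28.8 CPM and no call as fitted. Its corrected values with IFNγ were -0.51, -0.59 and -0.46 for ABBV-075 and ABBV-744 at 50 and 500 nM, all called lower.

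At the matched dose of 50 nM, the 2 inhibitors were compared directly. Without IFNγ, SRSF11 (0.97 ± 0.23, adjusted p = 0.00839), SRSF3 (0.53 ± 0.13, adjusted p = 0.00991) and SRSF1 (0.32 ± 0.12, adjusted p = 0.0499) were higher with ABBV-075 than with ABBV-744, 3 of 10 against 40.8% of all genes. The SRSF1 call was lost when any of 5 of the 6 libraries was left out, all but ABBV-075 replicate 3 (adjusted p = 0.071 to 0.199). Without that replicate, SRSF6 (0.40, adjusted p = 0.0329) and SRSF7 (0.43, adjusted p = 0.0175) were called higher with ABBV-075 as well. After GC correction SRSF11 (0.17) and SRSF3 (-0.065) were not called, SRSF1 (-0.32, adjusted p = 0.0421) and SRSF5 (-0.53, adjusted p = 0.0158) were lower with ABBV-075, and SRRM2 was higher (0.44, adjusted p = 0.0164), against 34.4% of all genes. As fitted, SRRM2 differed by 0.10 ± 0.18, with a 95% interval of -0.30 to 0.51. With IFNγ, 3 of 10 were called against 33.7% of all genes. SRRM2 (0.46 ± 0.10, adjusted p = 0.000159) and SRSF2 (0.29 ± 0.08, adjusted p = 0.00405) were higher with ABBV-075, and SRSF1 was lower (-0.29 ± 0.08, adjusted p = 0.00448). The libraries of both groups had GC trends above 0, and these 3 calls held after correction, at 0.33, 0.35 and -0.17 (adjusted p = 0.000723, 1.82e-05 and 0.0334), while the SRSF1 call as fitted was lost without replicate 3 of IFNγ and ABBV-075 (adjusted p = 0.0657). After correction SRSF3 (0.19) and SRSF11 (0.30) were called higher with ABBV-075 as well, 5 of 10 against 34.6% of all genes. In levels, SRSF2 had 395, 407 and 420.1 CPM with IFNγ and ABBV-075, all above the 339, 344 and 353 CPM with IFNγ and ABBV-744.

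The 10-fold higher dose of ABBV-744 gave no call against the lower dose. In edgeR 0 of 10 were called without IFNγ, with 1 at an unadjusted p under 0.05 (SRSF6), and DESeq2 called 0, against 0.0274% of all genes. SRRM2 differed by 0.06 ± 0.10 between the doses, with a 95% interval of -0.15 to 0.27. With IFNγ, edgeR again called 0 of 10, with 1 at an unadjusted p under 0.05 (SRRM2, 0.27 ± 0.10, adjusted p = 0.155), against 1.7% of all genes. DESeq2 gave an adjusted p for 8 of the 10 genes there and called 0 of these 8.

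IFNγ alone left the 10 genes without a call. In edgeR 0 of 10 were called, 0 had an unadjusted p under 0.05, and DESeq2 called 0, against 3.46% of all genes. The log2 fold changes ran from -0.08 for SRSF1 to 0.20 for SRRM2, and the 95% interval of the latter was -0.004 to 0.40. Leaving out IFNγ replicate 1 gave a call for SRRM2, at 0.32 (adjusted p = 0.0308). For SRSF3 the interval was -0.14 to 0.17 and for SRSF1 -0.22 to 0.07. Tests of whether IFNγ altered an inhibitor's effect gave 0 of 10 calls for ABBV-075 in edgeR (0 at an unadjusted p under 0.05, 0 in DESeq2), against 0.0347% of all genes. Without ABBV-075 replicate 1, SRRM2 was called in that test, at -0.71 (adjusted p = 0.0282). For ABBV-744 they gave 5 of 10 at 50 nM, against 51.6% of all genes, and 5 of 10 at 500 nM, against 33.5%. SRSF1, SRSF3, SRSF7 and SRSF11 had a higher log2 fold change in the presence of IFNγ, and SRRM2 a lower log2 fold change, at both doses. After GC correction none of these kept both its direction and its call. Instead 0 of 10 were called higher and 5 lower at each dose (SRSF1, SRSF3, SRSF4, SRSF5 and SRSF6), with a median difference over the 10 genes of -0.31 at 50 nM and -0.25 at 500 nM, against 20.4% and 16.7% of all genes called.

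Over the 8 group means, SRSF3 and SRSF11 had Pearson's r = 0.975 in log2 CPM and SRSF6 and SRSF7 r = 0.891. The points are only 8 group means and carry the GC trend, so these are descriptions. Among 5019 genes whose mean log2 CPM was 5 or more, the closest to SRSF3 were PPP2CA (0.999), PIKFYVE (0.998) and ZFYVE16 (0.997). The closest to SRSF11 were TRPM7, CDC5L and RSBN1, each at 0.992. Within the 10 genes SRRM2 had its highest r, 0.549, with SRRM1, and SRSF2 its highest, 0.332, with SRSF4. Over all these genes SRRM2 was closest to CHTF8 (0.977), EP400 (0.976) and AP2A1 (0.973). SRSF1 was closest to EAF1 (0.987), and SRSF7 to CCNA2 (0.987).

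Other genes of RNA processing give the surroundings of these values. Without IFNγ, the share of all genes called in either direction was 39.3% with ABBV-075, 18.9% with ABBV-744 at 50 nM and 15.3% at 500 nM, and 45.1%, 10.8% and 17.9% after GC correction. With IFNγ it was 56.6%, 51.7% and 45.7%, and 55.9%, 34.4% and 36.8% after correction. The counts that follow stand beside these shares. Of 27 tested SR-related genes with arginine and serine repeats outside the 10, 10 were called higher and 1 lower with ABBV-075. NKTR rose by 1.37 and BCLAF1 by 1.20 on the log2 scale, while U2AF2, the subunit that binds the polypyrimidine tract, changed by -0.56. After GC correction these were 0.89, 0.72 and -0.42, and 13 were called higher and 1 lower. With ABBV-744, 0 were higher and 4 lower at 50 nM, and 2 higher and 1 lower at 500 nM. After correction the counts were 0 and 0 at 50 nM, and at 500 nM 4 were higher and 1 lower. With IFNγ the counts were 16 higher and 1 lower for ABBV-075, 14 and 3 for ABBV-744 at 50 nM, and 15 and 1 at 500 nM, and after correction 14 and 1, 10 and 3, and 12 and 1. The median log2 fold change of this list was 0.45 with ABBV-075, against 0.026 over all genes, and 0.34 after correction.

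The hnRNP genes, whose proteins often oppose SR proteins at exons, had more members called lower than higher without IFNγ. Of 22 tested, 0 were higher and 5 lower with ABBV-075, 1 and 10 with ABBV-744 at 50 nM, and 0 and 8 at 500 nM, with median log2 fold changes of -0.11, -0.30 and -0.23. Over all genes, 19.6%, 10.1% and 7.8% were called lower. After correction the hnRNP counts were 0 higher and 13 lower, 2 and 7, and 1 and 6. HNRNPM (-0.64) and HNRNPA1 (-0.53) fell with ABBV-075, and HNRNPDL (-0.84) and HNRNPA2B1 (-0.67) with ABBV-744 at 50 nM. All 4 kept their direction and call after correction, at -0.47, -0.63, -0.80 and -0.48. With IFNγ the counts were 3 higher and 10 lower for ABBV-075, 7 and 8 for ABBV-744 at 50 nM, and 6 and 6 at 500 nM, which became 0 and 13, 1 and 11, and 1 and 11 after correction.

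Among 5 tested relatives of the SR family outside the 10, SRSF8 fell with ABBV-075 by 1.10, the same after correction, and by 0.88 with IFNγ and ABBV-075 (-0.82 after correction). SRSF10, an SR-like repressor, rose by 0.44 in the latter comparison as fitted but had -0.26 after correction. Of the 5, 0 were higher and 1 lower with ABBV-075, and 0 and 3 with ABBV-744 at each dose. After correction the counts were 0 and 3 with ABBV-075, and 0 and 0, then 0 and 1, with ABBV-744 at 50 and 500 nM. With IFNγ they were 1 and 2 for ABBV-075, 2 and 1 for ABBV-744 at 50 nM, and 1 and 1 at 500 nM. These became 0 and 3, 0 and 4, and 0 and 2 after correction. Of 12 tested SR kinases, phosphatases and import factors, 4 were higher and 1 lower with ABBV-075, with CLK1 at 0.86 (0.39 after correction) and CLK3 at -0.60 (-0.55), and after correction 5 were higher and 1 lower. With ABBV-744 at 50 nM 0 were higher and 2 lower, SRPK1 (-0.43, -0.36 after correction) and PPP1CB (-0.34), and after correction only SRPK1 of the 12 was called. Of 34 core spliceosome genes, 6 were higher and 4 lower with ABBV-075, among them CDC5L (0.85), SF1 (0.76) and SNRPB (-0.73). With ABBV-744 at 50 nM the counts were 7 and 4, among them SF3A1 (0.72) and, lower, CDC5L (-0.42). After correction the core spliceosome counts were 8 higher and 11 lower with ABBV-075, and 5 and 1 with ABBV-744 at 50 nM. SF1, SNRPB and SF3A1 kept their calls, at 0.91, -0.67 and 0.62. Of 14 genes of nonsense-mediated decay, the route that removes poison-exon transcripts, 4 were higher and 0 lower with ABBV-075, including EIF4A3 (0.65, 0.68 after correction) and SMG1 (0.63, 0.54), and 1 was higher with ABBV-744 at each dose. After correction 4 were higher and 1 lower with ABBV-075, 0 and 0 with ABBV-744 at 50 nM, and 1 and 0 at 500 nM. With ABBV-075 and no IFNγ the median log2 fold change was -0.0093 for the SR relatives and 0.29 for the kinases and import factors. It was -0.03 for the core spliceosome and 0.093 for nonsense-mediated decay. After correction these medians were -0.23, 0.20, -0.015 and 0.13. With IFNγ and ABBV-075, 8 core spliceosome genes were higher and 13 lower, and 8 and 12 after correction. With IFNγ and ABBV-744 the core counts were 8 and 8 at 50 nM, and 5 and 8 at 500 nM. After correction they were 5 and 8, and 8 and 9.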

How the data were processed

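HepG2 RNA was depleted of ribosomal RNA and sequenced from directional libraries by the authors, who trimmed reads with Trimmomatic 0.33 and aligned them to GRCh38 with STAR 2.7.1; the processing notes also name CASAVA 1.8.2. Per gene symbol, the deposited values are unnormalized read counts on the gene's strand, on the other strand and without regard to strand. The annotation used for counting is not given in the sources used here. Libraries were grouped by their labelled treatment.

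Counts on the strand of the gene (98.3% to 98.5% of assigned reads) were used. Reads on genes were 12% to 16.8% of the reads in the files, and multiply aligned reads 56% to 69.4%. No pair of libraries was identical. Differential expression used edgeR 4.0.16 in R 4.3.3 (filterByExpr, TMM, quasi-likelihood test, no covariates) on the groups compared, with Benjamini-Hochberg adjustment over all genes tested and a threshold of 0.05. Interactions used 4 groups. The SE is the log2 fold change divided by the square root of F. CPM used TMM over 24 libraries, and values per kilobase used the union of GENCODE exons. The fits were tested on counts simulated for ABBV-075 against DMSO with a common dispersion and no GC trend. That test therefore does not bear on the GC trend or its correction.

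Alternatives were a block for the replicate number, a joint fit of all 24 libraries, RLE, scaling by library size only, DESeq2 1.42.0, both strands, a minimum of 10 counts in each library, no filter on counts, each replicate left out, and a GC correction (lowess, span 0.3, on the GC content of the longest transcript, known for 92.9% of symbols) with and without the block. The 10 genes, the other lists and the alternatives were chosen with earlier results of these data known. All 10 genes are described; from other lists, the 2 called genes with the largest change in each direction were eligible to be named. Intervals cover the spread between libraries only.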

Additional observations from a re-analysis of the deposited data

Results flagged for a closer look

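By an interaction test in edgeR over 4 groups, 5 of the 10 SR genes were called as fitted for ABBV-744 at each dose. The test asks whether the effect of ABBV-744 differed between cells with and without IFNγ. The share of all genes called in the same test was 51.6% at 50 nM and 33.5% at 500 nM. The values of the genes are the log2 fold change in the presence of IFNγ minus that in its absence. At 50 nM they were SRRM2 (-0.81 ± 0.16, adjusted p = 0.000109, -0.26 after GC correction), SRSF1 (0.56 ± 0.12, adjusted p = 0.000219, -0.40 after GC correction), SRSF3 (0.53 ± 0.12, adjusted p = 0.000704, -0.35 after GC correction), SRSF7 (0.72 ± 0.14, adjusted p = 7.4e-05, 0.11 after GC correction) and SRSF11 (0.90 ± 0.24, adjusted p = 0.00251, -0.28 after GC correction). At 500 nM they were SRRM2 (-0.61 ± 0.15, adjusted p = 0.00269, -0.21 after GC correction), SRSF1 (0.35 ± 0.12, adjusted p = 0.0279, -0.37 after GC correction), SRSF3 (0.37 ± 0.12, adjusted p = 0.0146, -0.29 after GC correction), SRSF7 (0.39 ± 0.14, adjusted p = 0.0267, -0.055 after GC correction) and SRSF11 (1.03 ± 0.21, adjusted p = 0.000314, 0.13 after GC correction). Over all genes the median of this difference was -0.14 at 50 nM and -0.088 at 500 nM, and -0.019 and -0.014 after GC correction.

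SRSF1 and SRSF3 were called in the opposite direction after the correction at both doses, and the other values were no longer called. SRSF4, SRSF5 and SRSF6 were called lower at both doses only after the correction. The GC trend moved with this contrast: it was -0.80 to -0.055 in the 6 libraries with ABBV-744 alone and 0.36 to 0.79 in the 6 with IFNγ and ABBV-744. Its part in the differences was not tested, because the correction also removes any response that follows GC content. In this contrast the trend and the treatment cannot be told apart. Leaving out single libraries ended the 500 nM calls of SRSF1 and SRSF7 for 5 libraries each, and that of SRSF3 for IFNγ replicate 3. For SRSF1 these were DMSO replicate 1, ABBV-744 replicate 2, IFNγ replicate 3 and replicates 1 and 2 of the combined treatment (adjusted p = 0.0585 to 0.11). For SRSF7 they were DMSO replicate 2, ABBV-744 replicate 3, IFNγ replicate 2 and replicates 1 and 2 of the combined treatment (adjusted p = 0.054 to 0.09). For SRSF3 the adjusted p was 0.065. At 50 nM, SRSF6 was called when ABBV-744 replicate 3 or IFNγ replicate 1 was left out (0.39 to 0.45, adjusted p = 0.0114 to 0.0294).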

How the results depend on the processing

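Of 1120 values under the alternatives other than GC correction and left-out libraries, 1085 stayed on the same side of the threshold (33 of them uncalled values whose sign turned), 18 lost the call, 17 gained it and 0 called values reversed. Of 1020 values with a library left out, 961 stayed on the same side (60 of them uncalled with a turned sign), 48 lost the call, 11 gained it and 0 called values reversed. Of 280 values under the GC correction, without and with the replicate block, 178 stayed on the same side (52 of them uncalled with a turned sign), 24 lost the call, 34 gained it and 44 turned in sign with a call before or after. Log2 fold changes that reversed are given with the GC correction and then with the block added. In IFNγ with ABBV-075, they were SRSF3 -0.0063 and -0.0073, and SRSF6 -0.31 and -0.31. In IFNγ with ABBV-744 at 50 nM, they were SRSF1 -0.49 and -0.49, SRSF3 -0.18 and -0.18, SRSF6 -0.44 and -0.44, SRSF7 -0.013 and -0.013, and SRSF11 -0.18 and -0.19. In IFNγ with ABBV-744 at 500 nM, they were SRSF1 -0.50 and -0.50, SRSF3 -0.14 and -0.14, SRSF6 -0.22 and -0.22, and SRSF7 -0.055 and -0.055. For ABBV-075 against ABBV-744 at 50 nM, they were SRSF1 -0.32 and -0.33, SRSF3 -0.065 and -0.071, and SRSF5 -0.53 and -0.52. In the IFNγ interaction with ABBV-744 at 50 nM, they were SRSF1 -0.40 and -0.40, SRSF3 -0.35 and -0.35, SRSF6 -0.50 and -0.50, and SRSF11 -0.28 and -0.27. In the IFNγ interaction with ABBV-744 at 500 nM, they were SRSF1 -0.37 and -0.37, SRSF3 -0.29 and -0.29, SRSF6 -0.42 and -0.42, and SRSF7 -0.055 and -0.059. By construction the correction shifts low-GC genes against high-GC genes.

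The number of the 10 genes called changed by over 1.5 times in these cases. For ABBV-744 at 50 nM it was 3, and 1 with GC correction, also with the block. For 500 nM it was 2, and 1 with all 24 libraries, with the block, and with GC correction without or with it. For IFNγ with ABBV-744 at 50 nM it was 4, and 7 with GC correction. At 500 nM with IFNγ it was 5, and 3 with all 24 libraries. For ABBV-075 against ABBV-744 it was 3, and 6 with all 24 libraries; with IFNγ it was 3, and 5 with GC correction, also with the block. For the ABBV-744 doses with IFNγ it was 0, and 1 with the block. The cause of these changes was not tested.

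With libraries left out, the counts ranged from 1 to 3 for ABBV-075, 2 to 3 for ABBV-744 at 50 nM, 1 to 2 at 500 nM and 0 to 1 for IFNγ. With IFNγ they ranged from 3 to 5 for ABBV-075, 3 to 4 for ABBV-744 at 50 nM and 2 to 5 at 500 nM. Between inhibitors at 50 nM they ranged from 2 to 5, and from 2 to 3 with IFNγ; between doses they were 0 both ways. For interactions they ranged from 0 to 1 for ABBV-075, 5 to 6 for ABBV-744 at 50 nM and 3 to 5 at 500 nM.

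The replicate number was not used as a pairing, because in 0 of the 11 comparisons of groups were the 3 correlations of same-numbered deviations all over 0.1. That rule does not show that the samples were unpaired. Between the ABBV-744 doses the correlations were 0.28, 0.38 and 0.047, and for ABBV-744 at 50 nM against DMSO they were -0.14, -0.14 and 0.011. Whether replicates of the same number were handled together was not tested. With the replicate block, 6 genes were called for IFNγ with ABBV-075 (4 without) and 7 for IFNγ with ABBV-744 at 500 nM (5 without). SRRM1, SRSF4 and SRSF11 rest on the fewest reads, 48 to 252 per library.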
